A study of Mus musculus with 13 samples.

Results

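The nuclear factor I (NFI) family comprises 4 genes, Nfia, Nfib, Nfic and Nfix, and these were taken by gene name from the 54532 genes of a count table of mouse small cell lung cancer tumours. The 4 genes were found once each, and all 4 were among the 16575 genes kept for testing. Messenger RNA was measured in 7 tumours labelled sgKdm6a RPP and 6 tumours labelled sgControl RPP. Both groups are small cell lung cancer (SCLC) tumours of untreated mice on a pure congenic BL6J background with a Lox-stop-lox (LSL) Cas9 allele, in which Cas9 is made after Cre removes a stop cassette. In the RPP model guides against Rb1, Trp53 and Rbl2 are present in both groups. The sgKdm6a tumours carry in addition a guide against Kdm6a, the gene of the histone H3 lysine 27 demethylase KDM6A (UTX), and the sgControl tumours carry a control guide. The promoter of Cre and the age and sex of the mice remain not given in the sources used here. The comparison is of tumours with a guide against Kdm6a and tumours with a control guide, and the Kdm6a alleles were not checked here.

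NFI proteins are transcription factors that bind DNA as homodimers or heterodimers through a conserved domain near the amino terminus, so that the family members recognise the same palindromic site. They act in late steps of organ development: Nfib is needed for maturation of the mouse lung, Nfia and Nfib for formation of glia and of the corpus callosum, Nfic for tooth root formation, and Nfix for the switch of muscle to its fetal programme and for quiescence of neural stem cells. In mouse small cell lung cancer Nfib is known as a recurrently amplified gene that promotes metastasis and opens chromatin, and axon growth genes such as Gap43 and Fez1 have been linked to migration of these tumour cells.

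The kinship of the family is visible in its coding sequence. All 4 genes hold a coding exon of 532 bases, known to encode most of the DNA-binding domain, of which 351 bases are the same in the 4 genes. Identity between pairs of genes over this exon was 75.8% for Nfia with Nfic and 82.0% for Nfic with Nfix, with the other pairs between these values. The stretch of 120 bases with the most shared positions, which is the start of the exon, is shown because it makes plain both how alike the genes are and that reads can still be assigned to one of them. Sequences are from GENCODE M21 on GRCm38 (the mm10 build), 5′ to 3′ on the coding strand, and capitals mark the 32 positions that are not the same in all 4 genes. The coordinates are chr4:97783082-97783201 (plus strand) for Nfia, chr4:82498650-82498769 (minus) for Nfib, chr10:81420679-81420798 (minus) for Nfic and chr8:84772196-84772315 (minus) for Nfix.
Nfia: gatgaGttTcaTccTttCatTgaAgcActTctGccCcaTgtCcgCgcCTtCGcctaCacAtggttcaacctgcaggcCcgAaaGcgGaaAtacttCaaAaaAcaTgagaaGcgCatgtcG
Nfib: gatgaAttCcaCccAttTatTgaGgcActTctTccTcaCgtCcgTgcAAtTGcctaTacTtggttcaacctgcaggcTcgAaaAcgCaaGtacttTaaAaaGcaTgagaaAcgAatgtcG
Nfic: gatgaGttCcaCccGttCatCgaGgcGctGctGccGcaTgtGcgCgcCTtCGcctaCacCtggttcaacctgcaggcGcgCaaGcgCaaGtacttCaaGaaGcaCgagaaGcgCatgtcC
Nfix: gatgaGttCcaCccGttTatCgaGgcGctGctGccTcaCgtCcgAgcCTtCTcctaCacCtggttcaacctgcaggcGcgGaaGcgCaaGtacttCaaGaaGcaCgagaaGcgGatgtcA
Despite this likeness, 0 stretches of 50 bases were shared between transcripts of different members. With transcripts of all other genes Nfia and Nfib shared 0 such stretches, while 0.358% of those of Nfic and 1.34% of those of Nfix occurred elsewhere.

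Libraries were deep and differed little in size, but not all of them were alike. The deposited counts summed to between 16835726 and 22910187 per tumour, and 3 counts, taken as the detection limit, were 0.131 to 0.178 CPM (counts scaled to the library size), which covers counting error only. That limit was scaled to the summed counts, whereas the other CPM values use the normalised library sizes described with the processing. Kdm6a mRNA was present at 42.7 to 91.3 CPM in sgKdm6a tumours and at 51.7 to 112 CPM in sgControl tumours; small insertions or deletions left by Cas9 need not lower an mRNA, so these levels do not check the alleles. The 12 neuroendocrine markers, Chga and Syp among them, were all among the tested genes, and their CPM summed to between 3631 and 17287 in sgKdm6a and between 3393 and 8669 in sgControl tumours. The sgControl replicate 6 stood apart: its mean over 5 lists of alveolar, endothelial, macrophage and fibroblast markers was 8.28 log2 CPM, compared with 2.36 to 4.71 in sgKdm6a tumours and 4.24 to 4.80 in the other sgControl tumours. Reads of the Y-linked gene Ddx3y were found in 1 of 7 sgKdm6a tumours (replicate 3) and 5 of 6 sgControl tumours (all but replicate 4). The X-linked gene Xist was at 407 to 1792 CPM in tumours without Ddx3y reads and at most 2.66 CPM in those with them. The fold changes between genotypes thus also set tumours largely with Xist and without Ddx3y against tumours largely with Ddx3y. With a term for 4 Y-linked genes the Nfia log2 fold change given below was 2.26 in place of 1.70. Among the sgKdm6a tumours, replicates 1 and 2, 4 and 5, and 6 and 7 have a title number in common and may each be of one animal, so the p-values below count as separate some tumours that may not be.

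Across genotypes Nfic was the steadiest and usually the most abundant NFI mRNA, Nfib came next, Nfix ranged from near the lowest to the highest level of the family, and Nfia was the scarcest. Levels are compared between genes as FPKM (fragment counts scaled to gene length and library size), which corrects for the deposited gene lengths of 6630 to 14957 bases. The median FPKM in sgKdm6a tumours was 42.1 for Nfic, 24.5 for Nfib, 11.8 for Nfix and 2.23 for Nfia. In sgControl tumours these medians were 35.2 for Nfic, 27.7 for Nfib, 21.6 for Nfix and 1.58 for Nfia, the same order. Ranges of Nfic, Nfib and Nfix overlapped within each genotype, so these 3 cannot be ranked against their spread, and those of Nfix and Nfia overlapped too. The ranges of Nfib and Nfia did not overlap in either genotype.

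No NFI gene passed the threshold of 0.05 for the edgeR adjusted p between genotypes. Across all 16575 genes 0 (0.0%) passed with edgeR, against 83 of 20138 genes (0.412%) with DESeq2, none of them an NFI gene. Unadjusted edgeR p-values under 0.05 were reached by 1683 genes (10.2%), of which 527 (3.18% of all tested) were at a higher and 1156 (6.97%) at a lower level with the Kdm6a guide. Of the 4 NFI genes Nfia was among those higher, and Nfib, Nfic and Nfix were in neither class. The genotypes overlapped in each of the 4, whereas 47 tested genes (0.284%) showed no overlap. In bulk tumours, more cells with a transcript and more transcript per cell cannot be told apart.

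**Figure D1:**
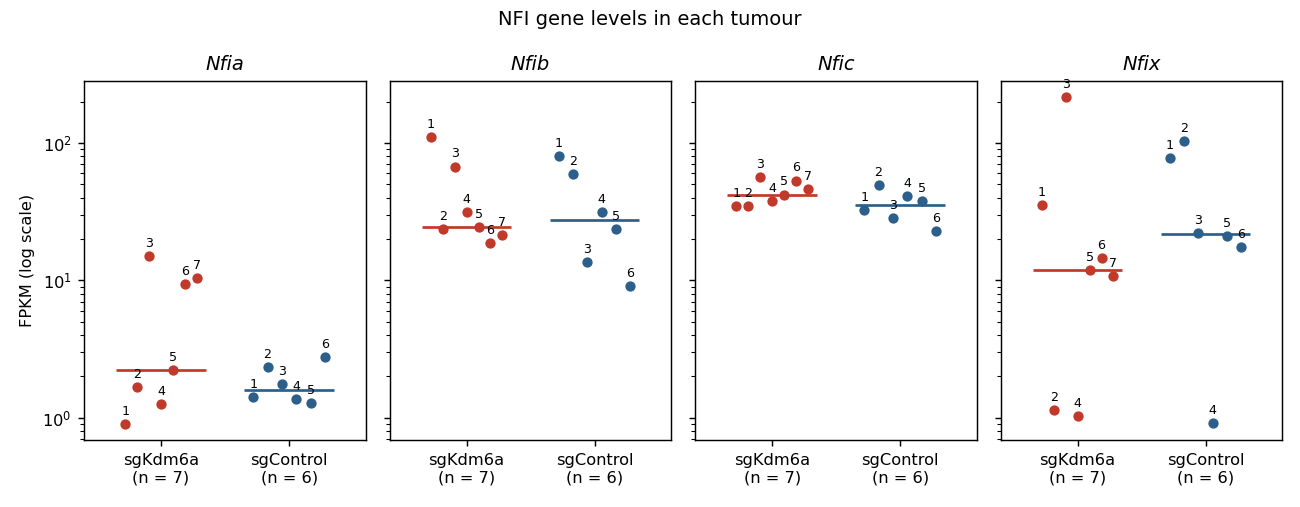
FPKM (log axis) of the 4 NFI genes in each tumour, sgKdm6a (red, n = 7) left of sgControl (blue, n = 6); points carry the replicate number and horizontal lines are medians. Nfia has 3 sgKdm6a tumours (replicates 3, 6 and 7) above every sgControl tumour, Nfic varies least, and Nfix spans the widest range.

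Nfib (ENSMUSG00000008575, chr4:82290173-82705750, minus strand), the family member tied to metastasis in this cancer, was abundant in a few tumours of both genotypes. Its FPKM in sgKdm6a replicates 1 to 7 was 110.5, 23.7, 67.4, 31.6, 24.5, 18.7 and 21.2, and in sgControl replicates 1 to 6 it was 79.8, 59.9, 13.5, 31.5, 23.8 and 9.03. The high tumours were sgKdm6a replicates 1 and 3 and sgControl replicates 1 and 2, and the groups overlapped nearly throughout, with 1 of 7 sgKdm6a tumours above every sgControl tumour. Mean Nfib was 9.10 ± 0.95 log2 CPM (SD, n = 7) in sgKdm6a and 8.79 ± 1.21 log2 CPM (SD, n = 6) in sgControl tumours. The Nfib log2 fold change was 0.23 (SE 0.55 by edgeR, adjusted p = 0.932), smaller than the spread between tumours of one genotype. It was -0.20 without sgKdm6a replicate 1. The highest Nfib level was 12.2 times the lowest, and 75.2% of tested genes had a smaller standard deviation of log2 CPM over the 13 tumours.

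Nfia (ENSMUSG00000028565, chr4:97772734-98118874, plus strand), a factor of glial development, had the largest difference in the family. Its FPKM in sgKdm6a replicates 1 to 7 was 0.898, 1.66, 15.01, 1.25, 2.23, 9.45 and 10.47, and in sgControl replicates 1 to 6 it was 1.40, 2.35, 1.75, 1.37, 1.28 and 2.78. The sgKdm6a tumours fell apart into replicates 3, 6 and 7, all above every sgControl tumour, and the remaining 4, of which replicates 1 and 4 were below every sgControl tumour. A pattern of at least 3 of 7 sgKdm6a tumours above every sgControl tumour was shown by 2276 tested genes (13.7%). Replicates 6 and 7 share a title number, so the high levels stand for 2 title numbers. Mean Nfia was 5.35 ± 1.67 log2 CPM (SD, n = 7) in sgKdm6a and 4.35 ± 0.44 log2 CPM (SD, n = 6) in sgControl tumours. The Nfia log2 fold change was 1.70 (SE 0.64), with an edgeR p of 0.0201 unadjusted and 0.427 adjusted over all genes. The difference in mean log2 CPM was 0.997, with an exact permutation p of 0.178 (two-sided, 1716 splits). Without sgKdm6a replicate 3 the edgeR log2 fold change was 1.25 (unadjusted p = 0.0555), so the unadjusted p then no longer lay under 0.05.

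The labels name no series, so the tumours were split here into 2 series, of lower and of higher title numbers. In the lower series the sgControl titles have a prefix that the sgKdm6a titles lack. The Nfia log2 fold change had opposite signs in the 2 series, but the test between them did not pass the adjusted threshold. In the higher series (5 sgKdm6a and 3 sgControl tumours) the Nfia log2 fold change was 2.08 (SE 0.82 by edgeR, unadjusted p = 0.0328, adjusted p = 0.416). In the lower series (2 sgKdm6a and 3 sgControl tumours) it was -0.53 (SE 0.44 by edgeR, unadjusted p = 0.278, adjusted p = 0.928). The test of the difference between the series, higher minus lower, gave 2.63 (SE 1.12 by edgeR, unadjusted p = 0.0377, adjusted p = 0.712), with 0 of 16575 genes past the adjusted threshold for this term. In the lower series, replicates 1 and 2 of sgKdm6a carry the same title number and so may come from one animal, and these fits count them as 2 replicates. With the series as a term in the fit the Nfia log2 fold change was 1.13 (SE 0.74 by edgeR, unadjusted p = 0.150).

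Nfic (ENSMUSG00000055053, chr10:81396186-81455635, minus strand) differed little from tumour to tumour. Its FPKM in sgKdm6a replicates 1 to 7 was 34.5, 34.98, 56.4, 37.8, 42.1, 53.3 and 46.0, and in sgControl replicates 1 to 6 it was 32.6, 49.7, 28.6, 40.9, 37.8 and 22.8. The groups overlapped, with sgKdm6a replicates 3 and 6 above every sgControl tumour and sgControl replicate 6 the lowest of all. Mean Nfic was 8.25 ± 0.30 log2 CPM (SD, n = 7) in sgKdm6a and 7.93 ± 0.40 log2 CPM (SD, n = 6) in sgControl tumours. The Nfic log2 fold change was 0.30 (SE 0.19 by edgeR, adjusted p = 0.639). It was -0.07 with a term for the 5 tissue marker lists. The highest level was 2.48 times the lowest, and 25.9% of tested genes had a smaller standard deviation.

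Nfix (ENSMUSG00000001911, chr8:84699876-84800344, minus strand), the family member of fetal muscle and quiescent neural stem cells, was the most variable. Its FPKM in sgKdm6a replicates 1 to 7 was 35.2, 1.13, 214.8, 1.02, 11.8, 14.6 and 10.7, and in sgControl replicates 1 to 6 it was 77.1, 102.7, 22.2, 0.916, 20.96 and 17.5. Levels near 1 FPKM occurred in sgKdm6a replicates 2 and 4 and in sgControl replicate 4, the highest level was in sgKdm6a replicate 3, and the groups overlapped. The highest Nfix level was 234 times the lowest, and 98.7% of tested genes had a smaller standard deviation. Mean Nfix was 6.41 ± 2.70 log2 CPM (SD, n = 7) in sgKdm6a and 7.28 ± 2.41 log2 CPM (SD, n = 6) in sgControl tumours, a difference of -0.87 (exact permutation p = 0.561, two-sided). The edgeR log2 fold change of Nfix, which compares fitted means of counts, was 0.05 (SE 1.14 by edgeR, adjusted p = 0.997). The 2 estimates thus have opposite signs, and the edgeR estimate was -1.69 without sgKdm6a replicate 3. With a term for 4 Y-linked genes it was 2.48 (SE 1.23 by edgeR, adjusted p = 0.726).

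**Figure D2:**
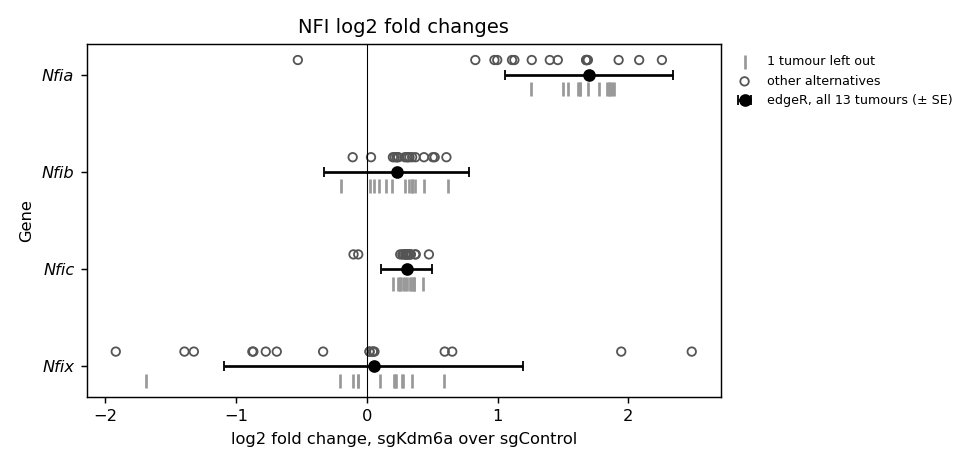
Log2 fold change of each NFI gene, sgKdm6a over sgControl, from edgeR with all 13 tumours (black, bars ± SE), with 1 tumour left out (grey ticks) and under the other alternatives (open circles). The Nfia values lie above 0 except within the lower title number series (-0.53), while those of Nfix lie on both sides of 0.

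Summed over the family, NFI mRNA overlapped widely between the genotypes. The summed FPKM of the 4 genes had a median of 88.4 (61.5 to 353.6) in sgKdm6a and 79.3 (52.1 to 214.7) in sgControl tumours. The 4 tumours with high Nfib were also the 4 with the highest sums, at 353.6 and 181.2 FPKM in sgKdm6a replicates 3 and 1, and 214.7 and 190.9 FPKM in sgControl replicates 2 and 1. The mean log2 sum was 6.78 ± 0.89 (SD, n = 7) in sgKdm6a and 6.61 ± 0.84 (SD, n = 6) in sgControl tumours, with an exact permutation p of 0.728 (two-sided). Nfib made up 33.8 ± 15.3% (SD, n = 7) of the sum in sgKdm6a and 29.7 ± 10.4% (SD, n = 6) in sgControl tumours, with an exact permutation p of 0.597. The share of Nfia was 4.80 ± 4.31% in sgKdm6a and 2.20 ± 1.67% in sgControl tumours (n = 7 and 6, exact permutation p = 0.230), and that of Nfix was 17.9 ± 20.1% in sgKdm6a and 30.3 ± 16.2% in sgControl tumours (exact permutation p = 0.245). Adjusted by Benjamini-Hochberg over the sum and the 4 shares, these exact permutation p-values were between 0.613 and 0.728, and the smallest p that the 1716 splits allow is 5.83e-04.

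**Figure D3:**
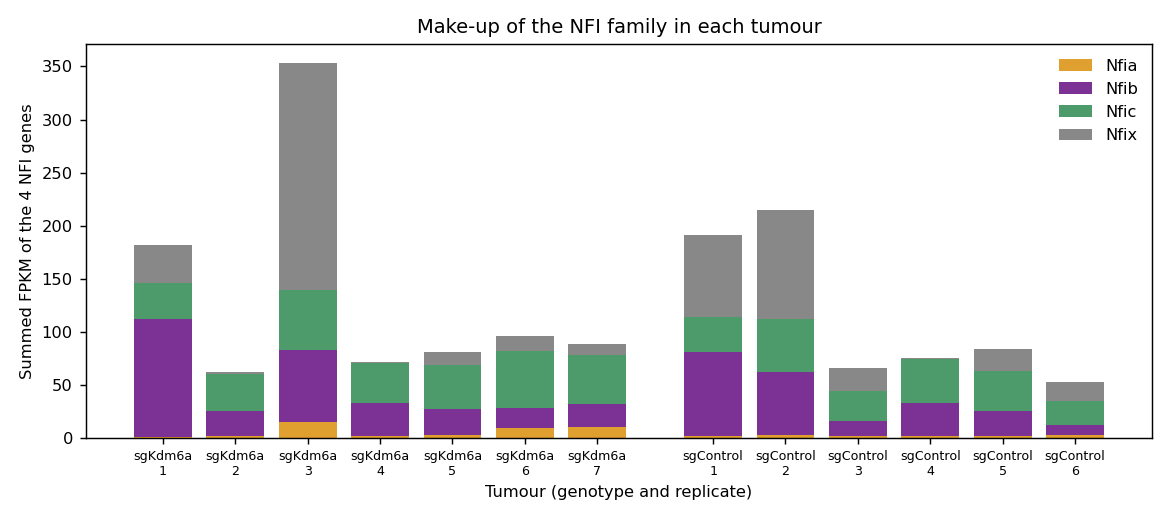
Summed FPKM of the 4 NFI genes in each tumour, stacked by gene, sgKdm6a replicates 1 to 7 left of sgControl replicates 1 to 6. Nfic leads in 5 of 7 sgKdm6a and 4 of 6 sgControl tumours, Nfib in sgKdm6a replicate 1 and sgControl replicate 1, and Nfix in sgKdm6a replicate 3 and sgControl replicate 2.

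The make-up of the family differed between tumours of one genotype, and between tumours with a shared title number. Nfia was the scarcest member in 5 of 7 sgKdm6a and 5 of 6 sgControl tumours, and Nfix was the scarcest in sgKdm6a replicates 2 and 4 and sgControl replicate 4. Within sgKdm6a replicates 1 and 2, which share a title number, Nfib differed 4.67-fold and Nfix 31.1-fold in FPKM. Replicates 4 and 5 differed 11.6-fold in Nfix and 1.29-fold in Nfib, and replicates 6 and 7 differed 1.36-fold in Nfix and 1.14-fold in Nfib. Over the 3 such pairs the median absolute difference in log2 CPM was 0.34 for Nfib and 0.86 for Nfia, against 0.92 for Nfib and 2.60 for Nfia over the 18 other pairs of sgKdm6a tumours. For Nfix it was 3.54 in the 3 pairs and 3.39 in the 18 others.

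The 4 tumours with high Nfib were also the 4 with the highest Nfix, while the scarcest member, Nfia, ran rather with Nfic. Spearman's rank correlation of log2 CPM over the 13 tumours was 0.51 for Nfia with Nfic, 0.39 for Nfib with Nfix, 0.23 for Nfia with Nfix, 0.18 for Nfib with Nfic, 0.05 for Nfic with Nfix and -0.40 for Nfia with Nfib. Without sgControl replicate 6 it was 0.70 for Nfia with Nfic and -0.04 for Nfib with Nfic. These are descriptions over tumours that share library preparation and, in pairs, a title number. The middle 90% of rank correlations with all tested genes ran from -0.64 to 0.62 for Nfib and from -0.43 to 0.43 for Nfia. It ran from -0.57 to 0.58 for Nfic and from -0.64 to 0.64 for Nfix.

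Genes whose level followed a member most closely were sought among 12153 genes with a mean of at least 5 CPM. For Nfib they were Elovl2, an elongase of polyunsaturated fatty acids (rank correlation 0.92), Ikbkap, which encodes a subunit of the Elongator complex (0.90), and Xpo6, an exporter of actin from the nucleus (0.90). Elovl2 was at 49.2 and 49.1 CPM in sgKdm6a replicates 1 and 3 and at 37.2 and 32.4 CPM in sgControl replicates 1 and 2, the tumours with high Nfib. It was at 19.9 to 27.2 CPM in the other sgKdm6a tumours and at 23.6 CPM or less in the other sgControl tumours, with 1 count (0.0615 CPM) in replicate 6. For Nfix the closest were Mtss1l, which encodes a membrane-bending protein (0.96), Mapt, which encodes the microtubule-binding protein tau (0.94), and the channel gene Hcn3 (0.93). Mapt reached 1507 CPM in sgKdm6a replicate 3 and was at 7.57 CPM in sgKdm6a replicate 4 and 6.96 CPM in sgControl replicate 4, where Nfix was also low. For Nfic they were Ankrd45 (0.94), Gprin1, which promotes neurite outgrowth (0.90), and the phosphatase gene Dusp26 (0.89). For Nfia they were Aida (0.74), the matrix metalloproteinase gene Mmp9 (0.74) and the survival gene Bcl2l1 (0.73), the lowest top values of the family. Without sgControl replicate 6 these 12 rank correlations lay between 0.70 and 0.96.

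Of 13 axon growth genes, all tested, 1 was higher and 0 were lower with the Kdm6a guide at an unadjusted edgeR p under 0.05, which 3.18% and 6.97% of all tested genes were. Their median log2 fold change was 0.43, against -0.0017 over all tested genes, and 0 passed the adjusted threshold. The gene with the low p was Cntn1, a neuronal adhesion molecule, at 0 to 688 CPM (median 5.47) in sgKdm6a and 0.208 to 5.10 CPM (median 0.759) in sgControl tumours. Its log2 fold change was 5.91 (SE 1.89 by edgeR, unadjusted p = 0.00758, adjusted p = 0.419), and it was 2.38 (unadjusted p = 0.0715 by edgeR) without sgKdm6a replicate 3 and 1.996 (unadjusted p = 0.384) with a term for the tissue marker lists. Nrcam, Tubb3 and L1cam, genes of axon adhesion and of neuronal tubulin, had log2 fold changes of 0.51 ± 0.27, 0.65 ± 0.41 and 0.33 ± 0.21 (SE), and the adjusted edgeR p was 0.549, 0.633 and 0.645.

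Gap43 and Fez1, which encode proteins of growth cones and of axonal transport, were highest in the 4 tumours in which Nfib, and also Nfix, was highest. Gap43 in sgKdm6a replicates 1 to 7 was at 39.8, 1.48, 225.6, 5.52, 14.4, 6.47 and 18.1 CPM, and in sgControl replicates 1 to 6 at 68.0, 25.5, 4.21, 16.05, 1.20 and 2.03 CPM. Fez1 in sgKdm6a replicates 1 to 7 was at 30.6, 0.823, 50.5, 2.62, 3.30, 19.2 and 1.79 CPM, and in sgControl replicates 1 to 6 at 24.5, 41.9, 0.492, 1.04, 0.729 and 0.431 CPM. For both genes the 4 tumours with high Nfib were the 4 highest, and Fez1 was next in sgKdm6a replicate 6, where Nfib was low. The rank correlation with Nfib was 0.73 for Gap43 and 0.78 for Fez1 over 13 tumours, and 0.71 and 0.72 without sgControl replicate 6. With Nfix it was 0.49 for Gap43 and 0.52 for Fez1, and 0.56 and 0.62 without that tumour. Between genotypes the log2 fold change was 1.19 for Gap43 (SE 1.15 by edgeR, adjusted p = 0.782) and 0.43 for Fez1 (SE 1.23 by edgeR, adjusted p = 0.944). Without sgKdm6a replicate 3 these were -0.44 and -0.23. Dcx, a microtubule-binding protein of migrating neurons, ran with Nfix (rank correlation 0.80) and with Nfib (0.58). The other genes of the list were mixed. Tubb3 had a rank correlation of 0.62 with Nfib, while Nrcam, L1cam and Cntn1 had -0.02, 0.00 and 0.07. Chl1, a neural adhesion molecule, had -0.49 (-0.74 without sgControl replicate 6). The list members not named here had 0.28 to 0.49 with Nfib. The median rank correlation of the 13 genes was 0.43 with Nfib, 0.42 with Nfic, 0.36 with Nfix and 0.25 with Nfia, and without sgControl replicate 6 it was 0.36, 0.34, 0.43 and 0.38 in that order of genes.

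**Figure D4:**
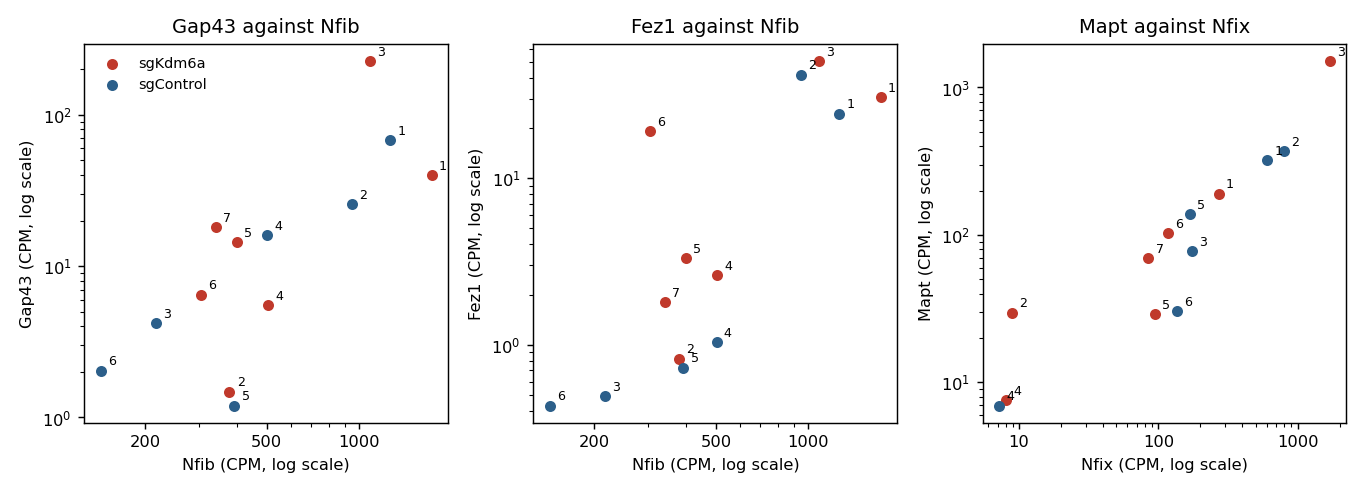
Gap43 and Fez1 against Nfib, and Mapt against Nfix, as CPM on log axes in each tumour (sgKdm6a red, sgControl blue, replicate numbers beside the points). The 4 tumours with high Nfib also have the 4 highest levels of Gap43 and Fez1, and Mapt follows Nfix with a rank correlation of 0.94.

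Of 9 genes known to respond to NFI factors in brain, lung or connective tissue, 7 were tested, and 0 were higher and 2 lower with the Kdm6a guide at an unadjusted edgeR p under 0.05 (3.18% and 6.97% of all tested genes). Their median log2 fold change was -0.04. The 2 were Sftpc, the surfactant gene of alveolar type 2 cells, with a log2 fold change of -3.58 (SE 1.21 by edgeR, unadjusted p = 0.0107), and the collagen gene Col1a2, with -1.87 (SE 0.80 by edgeR, unadjusted p = 0.0345). Both are also on the marker lists of alveolar type 2 cells and fibroblasts, of which 7 of 8 and 6 of 10 members were lower at that p. Without sgControl replicate 6 the values were -2.24 for Sftpc (unadjusted p = 0.0558 by edgeR) and -0.18 for Col1a2 (unadjusted p = 0.713). With the tissue term they were -1.12 and 0.49. That term is a mean over lists that hold both genes, so part of this change is built in. Ezh2, the Polycomb methyltransferase gene that NFI factors repress in mouse brain, had a log2 fold change of 0.24 (SE 0.31 by edgeR, adjusted p = 0.842). Its rank correlation with Nfib was 0.64, and 0.55 without sgControl replicate 6. The glial filament gene Gfap, an NFI target in astrocytes, had a log2 fold change of 0.53 (SE 1.11 by edgeR, adjusted p = 0.919). Its rank correlation with Nfic was 0.80, and 0.74 without that tumour, at 6.62 CPM or less in every tumour.

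Of 7 transcription factors of lung and neuroendocrine cells, 1 was higher and 0 were lower at an unadjusted edgeR p under 0.05 (3.18% and 6.97% of all tested genes), with a median log2 fold change of 0.12. Prox1, a homeobox factor of neuroendocrine tumour cells, was at 339.8 to 733.1 CPM (median 612.6) in sgKdm6a and 147.3 to 470.2 CPM (median 342.0) in sgControl tumours. Its log2 fold change was 0.70 (SE 0.26 by edgeR, unadjusted p = 0.0181, adjusted p = 0.425). It was 0.31 (unadjusted p = 0.259 by edgeR) with the tissue term and 0.65 (unadjusted p = 0.0663) with the Y-linked term. Nkx2-1, the lung lineage factor, had a log2 fold change of -0.31 (SE 0.24 by edgeR, adjusted p = 0.723), Insm1, a neuroendocrine zinc finger factor, 0.16 (SE 0.39 by edgeR, adjusted p = 0.933) and Mycl, the MYC family gene of classic neuroendocrine tumours, 0.19 (SE 0.69 by edgeR, adjusted p = 0.960). Over the 13 tumours Nfix ran opposite to Foxa2 (rank correlation -0.73) and Mycl (-0.65). In sgKdm6a replicate 3, where Nfix was highest, Foxa2 was at 12.6 CPM, against 119 to 391 CPM in each of the other tumours.

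Many markers of other cell types were at a lower level with the Kdm6a guide, though 0 passed the adjusted threshold. At an unadjusted edgeR p under 0.05, 10 of 10 macrophage, 7 of 10 endothelial, 6 of 8 alveolar type 1 and 1 of 5 smooth muscle markers were lower. Of 4 tested T and NK cell and 6 airway markers 0 were, beside 6.97% of all tested genes. Of 12 neuroendocrine markers 2 were higher and 0 lower at that p, beside 3.18% higher among all tested genes. These counts were not redone without sgControl replicate 6. The macrophage markers summed to 239.7 to 658.4 CPM in sgKdm6a and 485.4 to 17156 CPM in sgControl tumours, with at most 1578 CPM in sgControl tumours other than replicate 6, and 0 markers of these lists were at 0 in all tumours. The rank correlation of Nfic with the list mean of endothelial, of alveolar type 2 and of alveolar type 1 markers was -0.65, -0.61 and -0.60, and without sgControl replicate 6 it was -0.56, -0.50 and -0.50. Over 13 tumours these values lay below the middle range of Nfic with all tested genes given above (-0.57 to 0.58). Without sgControl replicate 6 they lay inside that range, which was itself not redone without this tumour. Nfib had rank correlations of 0.05, -0.27 and -0.04 with these lists, and 0.34, -0.07 and 0.22 without that tumour. The rank correlation of Nfib with the mean of the neuroendocrine list was -0.47 over 13 tumours and -0.80 without sgControl replicate 6. The first value lay inside the middle range of Nfib with all tested genes (-0.64 to 0.62), which was not redone without this tumour. Single markers did not all share that sign: Insm1, on the same list, had 0.43 with Nfib, and 0.36 without that tumour. The part of these cell types in the NFI levels was not tested.

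Nfib lies in a segment of chromosome 4 that is often amplified in mouse small cell lung cancer, and its neighbours were mixed where it was high. Of 45 genes within 2000000 bases, 11 were tested, among them 9 protein-coding neighbours. Nfib deviated from its median over the tumours by 2.12 on the log2 scale in sgKdm6a replicate 1 and by 1.45 in sgKdm6a replicate 3, and by 1.67 and 1.26 in sgControl replicates 1 and 2. Single neighbours deviated by -0.78 to 4.16 in sgKdm6a replicate 1 and by -6.44 to 5.77 in sgKdm6a replicate 3, and by -0.48 to 1.25 and -2.46 to 0.91 in sgControl replicates 1 and 2. As far up as Nfib or further were 2 of 9 neighbours in sgKdm6a replicate 1 and 1 of 9 in sgKdm6a replicate 3, and 0 of 9 in both sgControl tumours. The median rank correlation of the 11 tested neighbours with Nfib was 0.34, against 0.0055 over all tested genes. Mpdz, the nearest tested protein-coding gene on the lower side (847358 bases away), had a rank correlation of 0.85 with Nfib, and Zdhhc21 on the upper side (92988 bases away) 0.57. Snapc3 and Psip1 had 0.73 and 0.69, and Ttc39b had -0.67. DNA copy number was not measured here.

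Of the 11 tested neighbours of Nfib, 1 was higher and 0 were lower with the Kdm6a guide at an unadjusted edgeR p under 0.05. Among all tested genes 3.18% were higher and 6.97% lower at that p. The neighbour that was higher was Frem1. Frem1, an extracellular matrix gene 192170 bases from Nfib, was at 59.6, 7.57, 340.6, 4.67, 2.69, 23.1 and 12.8 CPM in sgKdm6a replicates 1 to 7. In sgControl replicates 1 to 6 it was at 5.08, 6.13, 7.66, 4.02, 0.781 and 3.63 CPM. Its log2 fold change was 3.82 (SE 1.13 by edgeR, unadjusted p = 0.00474, adjusted p = 0.419), and it was 2.03 without sgKdm6a replicate 3 and 2.79 (unadjusted p = 0.0732 by edgeR) with the tissue term. DESeq2 gave Frem1 an adjusted p of 0.0164, and its rank correlation with Nfib was 0.19.

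Around Nfia, on the same chromosome, 17 of 71 genes within 2000000 bases were tested, and 0 were higher or lower at that p. Nfia deviated by 3.10, 2.45 and 2.57 in sgKdm6a replicates 3, 6 and 7, and the highest of its 15 tested protein-coding neighbours by 1.85, 1.88 and 0.71 there. The overlapping gene E130114P18Rik, described below, was not among those tested. Around Nfic 3 of 148 tested genes were higher and 4 lower, and around Nfix 1 of 77 was higher and 7 were lower, beside 3.18% higher and 6.97% lower among all tested genes.

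**Figure D5:**
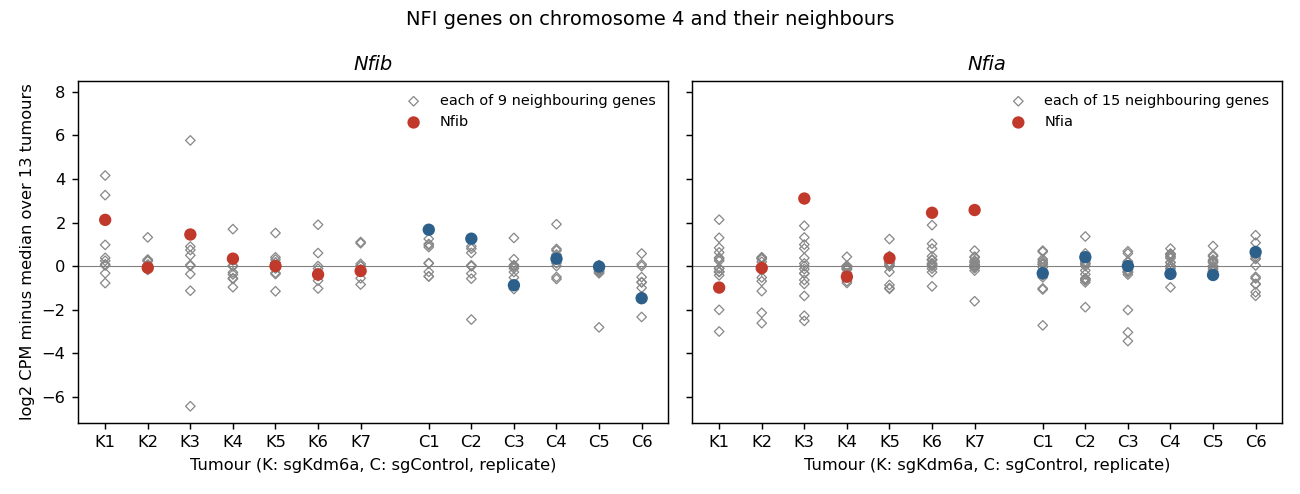
Deviation of log2 CPM from its median over the 13 tumours for Nfib (left) and Nfia (right; filled points, sgKdm6a red, sgControl blue) and for each of their 9 and 15 tested protein-coding neighbours (open diamonds). Neighbours of Nfib reach 5.77 in sgKdm6a replicate 3, and Nfia lies above all of these tested neighbours in sgKdm6a replicates 3, 6 and 7. E130114P18Rik, which overlaps Nfia, was not among the tested genes and is not drawn.

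Reads on genes that overlap a member on the other strand cannot be separated by strand, since the libraries were not stranded. The antisense gene E130114P18Rik at the 5′ end of Nfia shares 4 exonic bases with it and had 608 counts in sgKdm6a replicate 3 and 36 in sgKdm6a replicate 1, at most 5 in the other sgKdm6a tumours and at most 3 in sgControl tumours. These reached 17.8% of the Nfia count. Gm11266, an antisense RNA within Nfib, shares 0 exonic bases with it, had 13 to 682 counts in sgKdm6a and 9 to 212 counts in sgControl tumours, and was at most 1.92% of the Nfib count, with a rank correlation of 0.79. Within Nfix, Lyl1 shares 4 bases, with a count of at most 14.3% of that of Nfix, and G430095P16Rik 137 bases (1.86%) of the exons, and Gm16104 shares 72 bases (1.09%) with Nfic.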

How the data were processed

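RNA was sequenced from 7 sgKdm6a and 6 sgControl tumours, flash-frozen at necropsy, with a library kit that does not keep the strand, per the labels' protocols. STAR, DESeq2 and the mm10 build appear in the submitters' processing notes; versions, counting program and annotation remain not given in the sources used here. The authors deposited raw counts and FPKM per gene; the FPKM equal count over gene length over a constant that is 0.883 to 1.12 times the total count. Coordinates are as deposited.

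Counts were tested with edgeR 4.0.16 (R 4.3.3): filterByExpr, TMM factors, robust quasi-likelihood F test, Benjamini-Hochberg adjustment over 16575 genes. CPM are per TMM-scaled library, and log2 CPM have a prior count of 2. FPKM was used to compare genes. Values with 1 number per tumour were tested by exact permutation, two-sided, over all 1716 splits. Alternatives included DESeq2 1.42.0 and limma 3.58.1. Values were also computed in Python 3.11.15 with pandas.

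Members and gene lists were chosen with earlier results of these data known. Named are the members, for each the 3 genes of highest rank correlation (ties in alphabetical order), up to 4 genes of smallest p per list, nearest genes (printed for Nfib alone) and overlapping genes; Gap43, Fez1, Chl1, Dcx, Foxa2, Frem1, Snapc3, Psip1 and Ttc39b were named after their values were seen. On simulated counts for 16575 genes of this comparison, 12.1%, 64.2% and 88.1% of genes changed by 1, 2 and 4 log2 units were recovered. Of 111 calls 1 was false. The simulated tumours were drawn independently, so the false calls do not cover tumours that share a title number. Replicate numbers follow accession order and pair no tumours. One list member was tested and is not reported here.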

Additional observations from a re-analysis of the deposited data

Results flagged for a closer look

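Of 22 values tested for a sample far from the others of its genotype, 1 stood out. The share of Nfix in the summed NFI FPKM was 60.75% in sgKdm6a replicate 3, against 1.43% to 19.4% in the other 6 sgKdm6a tumours and 1.23% to 47.8% in sgControl tumours. Chance flags about 1 in 20 groups, so 1 flag among 22 values is near that rate.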

How the results depend on the processing

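The side of the adjusted threshold of each NFI gene was the same under every alternative run, with edgeR, DESeq2 or limma adjusted p of 0.232 to 0.928 for Nfia, 0.732 to 0.999 for Nfib, 0.426 to 0.984 for Nfic and 0.593 to 0.999 for Nfix; signs were not. Nfia was -0.53 within the lower title number series, where Nfic was -0.10 and Nfix -1.92. With limma-voom quality weights Nfib was -0.11 and Nfix -1.39. With the tissue term Nfic was -0.066 and Nfix -1.32. Nfix was -0.69 with a correlation within title numbers, -0.77 on log2(FPKM + 1), -0.87 on log2(FPKM + 0.1), -0.87 as a difference in mean log2 CPM and -0.33 as that difference over title numbers, the last 2 chosen after seeing the data. The difference in Nfib share was -1.91 percentage points in the higher series alone. The cause of these changes was not tested.

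Leaving out each tumour in turn gave 1.25 to 1.89 for Nfia, -0.20 to 0.62 for Nfib, 0.20 to 0.43 for Nfic and -1.69 to 0.59 for Nfix. The difference was -0.12 to 0.39 for the log2 sum (below 0 without sgKdm6a replicate 3 or sgControl replicate 6) and -0.42 to 6.62 percentage points for the Nfib share (below 0 without sgKdm6a replicate 1). Genes past the adjusted threshold were 0 in each; those at an unadjusted p under 0.05 were 932 (without sgControl replicate 6) to 1938.

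DESeq2 called 83 genes where edgeR called 0. The 1683 genes at an unadjusted p under 0.05 became 3262 without a filter, 946 with counts summed over title numbers, 859 with a correlation within them, 894 in the lower series, 1093 with a Y-linked term and 1043 on log2(FPKM + 1).

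Among named genes, the tissue term gave L1cam -8.8e-05, Ezh2 -0.15, Gfap -2.07, Insm1 -0.72, Mycl -0.81, Gap43 -0.46 and Fez1 -0.47. For Col1a2, which is itself part of that term, it gave 0.49. The lower series gave Col1a2 0.41, Gfap -1.73, Insm1 -0.80, Mycl -0.13, Gap43 -0.67 and Fez1 -0.51. Quality weights gave Ezh2 -0.095 and Insm1 -0.092; for Mycl the series term gave -0.045 and the Y-linked term -0.70. With 1 tumour left out the ranges were -0.11 to 1.76 for Gfap, -0.13 to 0.32 for Insm1, -0.24 to 0.95 for Mycl, -0.44 to 2.18 for Gap43 and -0.23 to 1.52 for Fez1.

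No paired analysis was possible because the labels tie no tumours across genotypes. The levels of the NFI genes lay above 3 counts in every tumour.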
